A study of Homo sapiens with 18 samples.

Results

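Tail-anchored membrane proteins hold a single membrane span close to the C terminus, so most of the protein has left the ribosome before the span emerges. They lack an N-terminal signal sequence. They are known to be inserted into membranes after translation ends, by the GET (TRC40) pathway, the ER membrane protein complex or, for proteins of mitochondria, by other routes. Most secreted and multi-pass proteins are instead known to be inserted while they are being made, by ribosomes bound to the Sec61 translocon. Footprints in a membrane fraction and in a cytosolic fraction therefore measure where such messages lay during translation.

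The 7 genes described were VAPA, VAPB, STX5, HMOX1, CYB5A, PTPN1 and FIS1, chosen as known tail-anchored proteins by 1 Ensembl transcript ID each: ENST00000400000 (VAPA), ENST00000475243 (VAPB), ENST00000294179 (STX5), ENST00000216117 (HMOX1), ENST00000340533 (CYB5A), ENST00000371621 (PTPN1) and ENST00000223136 (FIS1). They are 7 of 26679 transcript entries in the footprint tables and of 98334 in the mRNA tables, and all 7 were found in both. The tables hold no gene names, so each name rests on the list of IDs and on a length check. The length column was 20 codons under the stated protein length for all 7 in the footprint tables and 19 codons under it in the mRNA tables, and no ID was dropped. RefSeq places the genes on GRCh38.p14 at chr18:9914016-9960021 (VAPA), chr20:58389229-58451101 (VAPB), chr11:62806860-62832051 (STX5), chr22:35381096-35394207 (HMOX1), chr18:74250846-74291963 (CYB5A), chr20:50510383-50585241 (PTPN1) and chr7:101239472-101245081 (FIS1).

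Libraries came from UFM1-KO cells, UFSP2-KO cells and unedited HEK293 cells (WT), a human embryonic kidney line that carried no treatment. UFM1-KO cells were made with Cas9 and sgUFM1 and are labelled as lacking UFM1, a ubiquitin-like modifier. UFSP2-KO cells were made with Cas9 and sgUFSP2 and are labelled as lacking UFSP2, a protease that takes UFM1 off its targets. Ribosome footprints were sequenced from a membrane fraction (the Triton lysate of the pellet left by digitonin) and a cytosolic fraction (the digitonin lysate) of each line, and mRNA from whole-cell lysates, with 2 libraries, a and b, in each of the 9 groups. Each knockout is 1 clonal line, so its effect cannot be told apart from other differences between clones, and nothing says that a and b came from separate cultures, so p-values measure only the spread between these libraries. Library totals ranged from 2848544 to 11388755 counts in the membrane fraction, from 1393032 to 6666021 in the cytosol and from 37451244 to 68675420 in mRNA. Single members held 6 to 878 counts in a footprint library and 130 to 4518 in an mRNA library, so counting error is largest in the footprints. The loss of UFM1 or UFSP2 and the purity of the fractions were not checked by gene, because the tables do not pair IDs with names.

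The first question was where these messages were translated. None of the 7 was called higher at the membrane in any line. The edgeR test called 23.0% of 11065 transcript features higher at the membrane in UFM1-KO, 24.8% in UFSP2-KO and 25.3% in WT. With only 7 genes, read again in each line, 0 called does not set them apart from these shares. A feature is a set of transcript entries with identical counts, and each member was a feature of its own. In WT cells all 7 members had a membrane-to-cytosol ratio below 1, with a median log2 ratio of -0.41, beside -0.02 over all features. In UFM1-KO and UFSP2-KO 6 of 7 lay below 1, with medians of -0.29 and -0.54, beside 0.02 and 0.01 over all features. All features include those enriched at the membrane, with 22.9% called over 2-fold higher in WT, which raise these medians. In bins of 0.25, most WT features fell from -0.25 to 0. The test called 0 of the 7 lower at the membrane in UFM1-KO, beside 5.87% of all features. It called 1 of 7 lower in UFSP2-KO (VAPA) and 2 of 7 in WT (VAPA and FIS1), beside 12.2% of all features in each. In UFM1-KO 0 of 7 also had an unadjusted p under 0.05, beside 35.8% of all features, and DESeq2 called 0 of 7 there and 2724 of the 11065 features. A ratio compares shares of 2 libraries, so it does not give the fraction of a message's ribosomes at the membrane.

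VAPA and VAPB are paralogous receptors of the endoplasmic reticulum that hold lipid transfer proteins at contacts with other organelles. VAPA, the most abundant of the 7, had 123 and 108 CPM (counts per TMM-adjusted library size) in libraries a and b of the UFM1-KO membrane fraction, against 125 and 170 CPM in the UFM1-KO cytosol. In UFSP2-KO it had 97.7 and 82.7 CPM at the membrane, against 129.5 and 140.4 CPM in the cytosol. In WT it had 96 and 107 CPM at the membrane, against 132 and 202 CPM in the cytosol. The membrane libraries thus lay below the cytosol libraries in all 3 lines, narrowly in UFM1-KO. The log2 ratio was -0.35 in UFM1-KO (SE 0.23, edgeR adjusted p = 0.3), -0.59 in UFSP2-KO (SE 0.23, edgeR adjusted p = 0.0496) and -0.74 in WT (SE 0.23, edgeR adjusted p = 0.00979).

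VAPB had 23.3 and 25.8 CPM at the UFM1-KO membrane, against 35.6 and 24.7 CPM in the UFM1-KO cytosol. In UFSP2-KO it had 15.3 and 15.1 CPM at the membrane, against 20.4 and 24.4 CPM in the cytosol. In WT it had 15.9 and 19 CPM at the membrane, against 16 and 22.1 CPM in the cytosol. The fractions overlapped in UFM1-KO and WT and not in UFSP2-KO, where the ratio was as low as that of VAPA. Its log2 ratio was -0.29 in UFM1-KO (SE 0.27, edgeR adjusted p = 0.495), -0.59 in UFSP2-KO (SE 0.3, edgeR adjusted p = 0.135) and -0.18 in WT (SE 0.28, edgeR adjusted p = 0.656).

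FIS1, which sits in the outer membrane of mitochondria and takes part in their fission, had the lowest ratio of the 7 in WT. It had 19.6 and 12 CPM at the WT membrane, against 36 and 26.5 CPM in the WT cytosol, with no overlap. The log2 ratio was -0.99 (SE 0.31, edgeR adjusted p = 0.011), lower than all but 6.7% of the features tested. In UFM1-KO FIS1 had 17.4 and 12.3 CPM at the membrane, against 25.4 and 20.7 CPM in the cytosol, and in UFSP2-KO 12.5 and 21.5 CPM at the membrane, against 24.8 and 25.6 CPM in the cytosol. Both knockouts thus kept the membrane libraries below the cytosol libraries, but the log2 ratios of -0.56 (SE 0.32) and -0.54 (SE 0.32) were not called (edgeR adjusted p = 0.228 and 0.215).

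The remaining 4 members were not called in any line. STX5, a SNARE of traffic between the endoplasmic reticulum and the Golgi, had log2 ratios of -0.57 in UFM1-KO, -0.38 in UFSP2-KO and -0.56 in WT. PTPN1, a tyrosine phosphatase held on the cytosolic face of the endoplasmic reticulum, had -0.22, -0.04 and -0.34 in the same order of lines. CYB5A, cytochrome b5, an electron carrier for lipid desaturation, had 0.47, -0.74 and -0.37. HMOX1, haem oxygenase 1, which breaks down haem, had -0.24, 0.86 and -0.41. The positive values of CYB5A in UFM1-KO (SE 0.47, edgeR adjusted p = 0.537) and of HMOX1 in UFSP2-KO (SE 0.46, edgeR adjusted p = 0.154) rested on few cytosol counts, 13 and 25 for CYB5A and 7 and 11 for HMOX1.

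The members' intervals lay below the median enrichment of the features called over 2-fold higher at the membrane. Those features were picked by this same ratio, so their enrichment is high by construction and the comparison is a description only. The 10th percentile of their log2 ratios was 2.32 in UFM1-KO, 2.03 in UFSP2-KO and 2.05 in WT. The features called over 2-fold higher at the membrane, 21.7% of all in UFM1-KO, 22.6% in UFSP2-KO and 22.9% in WT, had a median enrichment of 39.0-fold, 37.2-fold and 43.8-fold. The upper 95% bound of the 7 members was at most 2.68-fold in UFM1-KO (CYB5A), 3.47-fold in UFSP2-KO (HMOX1) and 1.39-fold in WT (CYB5A). Ranked among all features by this ratio, the 7 stood between the percentiles 15.2 (STX5) and 70.7 (CYB5A) in UFM1-KO, 16 (CYB5A) and 74.8 (HMOX1) in UFSP2-KO, and 6.7 (FIS1) and 41.3 (VAPB) in WT.

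**Figure D1:**
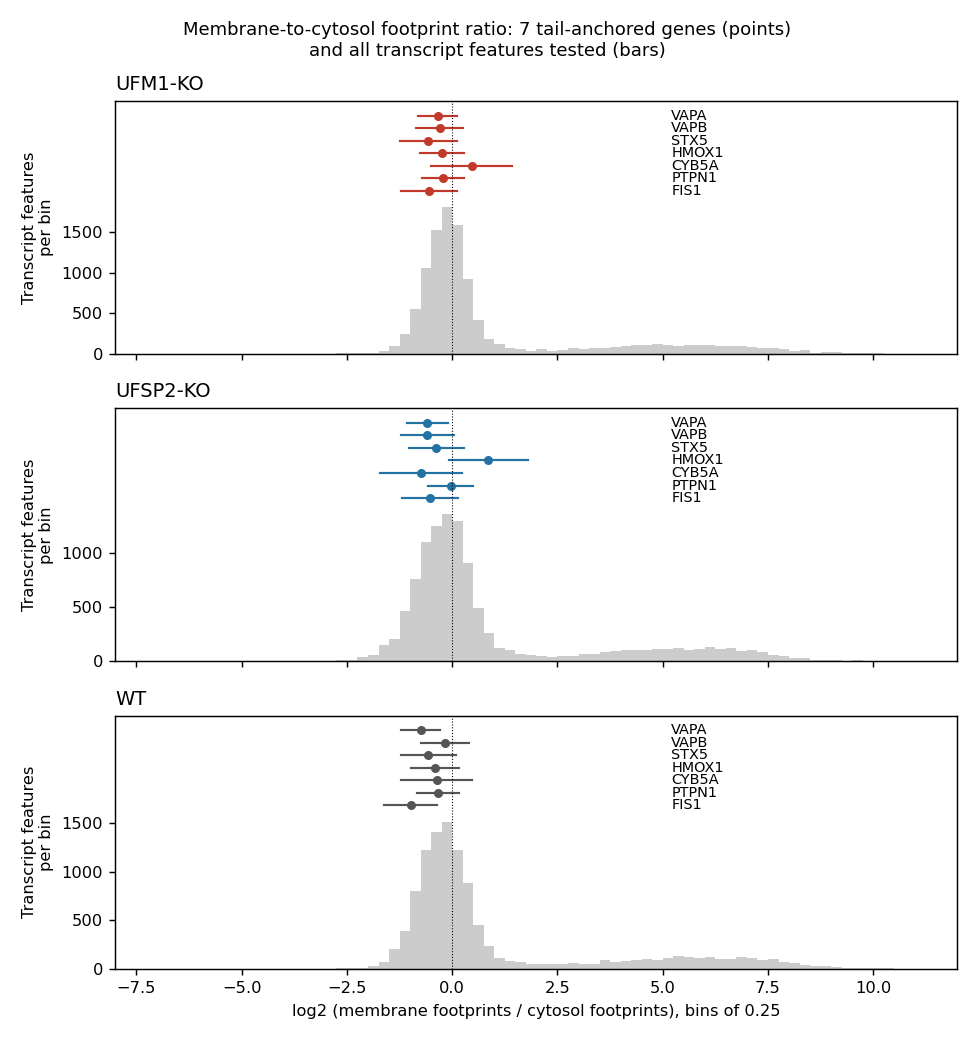
Log2 ratio of membrane to cytosol footprints in UFM1-KO, UFSP2-KO and WT (panels from top to bottom). Bars count all 11065 transcript features in bins of 0.25; points with bars give the 7 members with their 95% intervals, and their height has no meaning. In each line the members lie over the main peak near 0, and none lies over the broad shoulder on the right, where the median log2 ratio of features called over 2-fold higher was 5.22 to 5.45.

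The calls for VAPA and FIS1 ended when certain single libraries were left out. The fit is less precise with a library left out, so a lost call need not mean a weaker ratio. VAPA was no longer called in WT without membrane library a (log2 -0.67) or cytosol library b (-0.37). In UFSP2-KO it was not called without membrane library a (-0.7) or b (-0.47), nor without cytosol library a (-0.64) or b (-0.64). With all libraries this VAPA log2 ratio was -0.59, so it was weaker only without membrane library b. FIS1 was no longer called in WT without membrane library b (-0.61) or cytosol library a (-0.82). DESeq2 called neither in WT (adjusted p = 0.0502 and 0.0809), and over the 10 alternatives the adjusted p ranged from 9.97e-04 to 0.352 for VAPA and from 0.00353 to 0.262 for FIS1. Without WT cytosol library b the WT log2 ratios of CYB5A and VAPB turned to 0.84 and 0.16, neither called. CYB5A was called lower at the UFSP2-KO membrane without membrane library b (-2.17).

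Whether the place of translation differed in a knockout was tested by setting each knockout's membrane-to-cytosol ratio against that of WT. It was called for 0 of 7 members in UFM1-KO and 0 of 7 in UFSP2-KO, beside 0.00904% of all features in each, by edgeR. DESeq2 also called 0 of 7 in each. At an unadjusted p under 0.05 there were 0 members in UFM1-KO and 1 in UFSP2-KO, beside 4.87% and 4.4% of all features. This was HMOX1, whose log2 ratio differed by 1.26 (SE 0.54, 95% interval 0.16 to 2.36, edgeR adjusted p = 1), and by 0.51 without UFSP2-KO cytosol library b and 0.88 without UFSP2-KO membrane library b. The log2 changes of the other 6 ran from -0.11 to 0.84 in UFM1-KO and from -0.41 to 0.45 in UFSP2-KO. Their 95% intervals together spanned -0.93 to 2.12 in UFM1-KO and -1.66 to 1.37 in UFSP2-KO, and CYB5A set both 2.12 and -1.66.

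HMOX1 was the only member that edgeR called between lines. In UFSP2-KO against WT, and between the knockouts, it was called in mRNA, membrane footprints and cytosol footprints. In UFM1-KO against WT it was called in membrane footprints only. By edgeR, 0 of the other 6 members were called in any of these comparisons. For mRNA the share of all 13889 features called was 1.97% in UFM1-KO against WT, 7.19% in UFSP2-KO against WT and 16.0% between the knockouts. For membrane footprints these shares were 1.26%, 11.1% and 21.4%, and for cytosol footprints 0.850%, 3.99% and 12.0%, in the same order of comparisons. Between the knockouts, 1 call among 7 genes is near these shares. In mRNA HMOX1 had 28.4 and 41.4 CPM in UFM1-KO, 10.4 and 9.82 CPM in UFSP2-KO, against 22 and 30.7 CPM in WT. The UFSP2-KO libraries lay below those of both other lines, while UFM1-KO and WT overlapped. In UFSP2-KO its mRNA fell by 1.38 on the log2 scale (2.60-fold, SE 0.28, edgeR adjusted p = 0.0076). In UFM1-KO its log2 change against WT was 0.40 (SE 0.27, edgeR adjusted p = 0.476). The bulk libraries cannot tell a change in every cell from a change in the share of cells with the message.

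Footprints of HMOX1 lay in the same order. At the membrane it had 42.3 and 33.3 CPM in UFM1-KO, 5.68 and 8.75 CPM in UFSP2-KO, against 21.2 and 16.1 CPM in WT, and no group overlapped another. Against WT, membrane footprints rose in UFM1-KO by a log2 change of 1.08 (SE 0.26, edgeR adjusted p = 0.0325) and fell by 1.29 in UFSP2-KO (SE 0.33, edgeR adjusted p = 0.0125). In the cytosol it had 45.9 and 44.9 CPM in UFM1-KO, 6.21 and 3.23 CPM in UFSP2-KO, against 22 and 25.1 CPM in WT, again with no overlap. The log2 change of cytosol footprints in UFM1-KO was 0.91 (SE 0.28, edgeR adjusted p = 0.13), with an unadjusted p of 0.00277. In UFSP2-KO cytosol footprints fell by 2.55 on the log2 scale, or 5.85-fold (SE 0.38, edgeR adjusted p = 1.64e-04). The UFSP2-KO cytosol libraries held only 7 and 11 HMOX1 counts.

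Set directly against UFSP2-KO, UFM1-KO had more HMOX1 in each measure. The difference was 5.16-fold in membrane footprints (log2 2.37, SE 0.32, edgeR adjusted p = 5.87e-06), 11-fold in cytosol footprints (log2 3.46, SE 0.37, edgeR adjusted p = 3.43e-07) and 3.44-fold in mRNA (log2 1.78, SE 0.28, edgeR adjusted p = 4.90e-04). HMOX1 was called in these 3 comparisons under each of the 10 alternatives as well, but the cytosol log2 difference was 2.74 without UFSP2-KO cytosol library b. The UFSP2-KO cytosol libraries held only 7 and 11 HMOX1 counts, so the size of the cytosol difference is loosely set. The comparisons with WT share the WT libraries, and their calls were less steady. A fit with a library left out is less precise, so a lost call need not mean a weaker change. With all libraries the membrane log2 changes were 1.08 in UFM1-KO and -1.29 in UFSP2-KO. At the membrane DESeq2 called 45 of all 11065 features in place of 139 for UFM1-KO against WT. For UFSP2-KO against WT it called 528 in place of 1232. The UFM1-KO membrane call ended without any 1 of the 4 libraries compared (log2 0.87 without UFM1-KO library a, 1.21 without b, 0.85 without WT library b, 1.25 without a) and with DESeq2 (1.02). The UFSP2-KO membrane call ended without UFSP2-KO library a (-1.04) or b (-1.67), without WT library a (-1.11) and with DESeq2 (-1.3). The UFSP2-KO cytosol call ended without UFSP2-KO cytosol library b (-1.81), and the UFSP2-KO mRNA call without WT mRNA library b (-1.12).

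**Figure D2:**
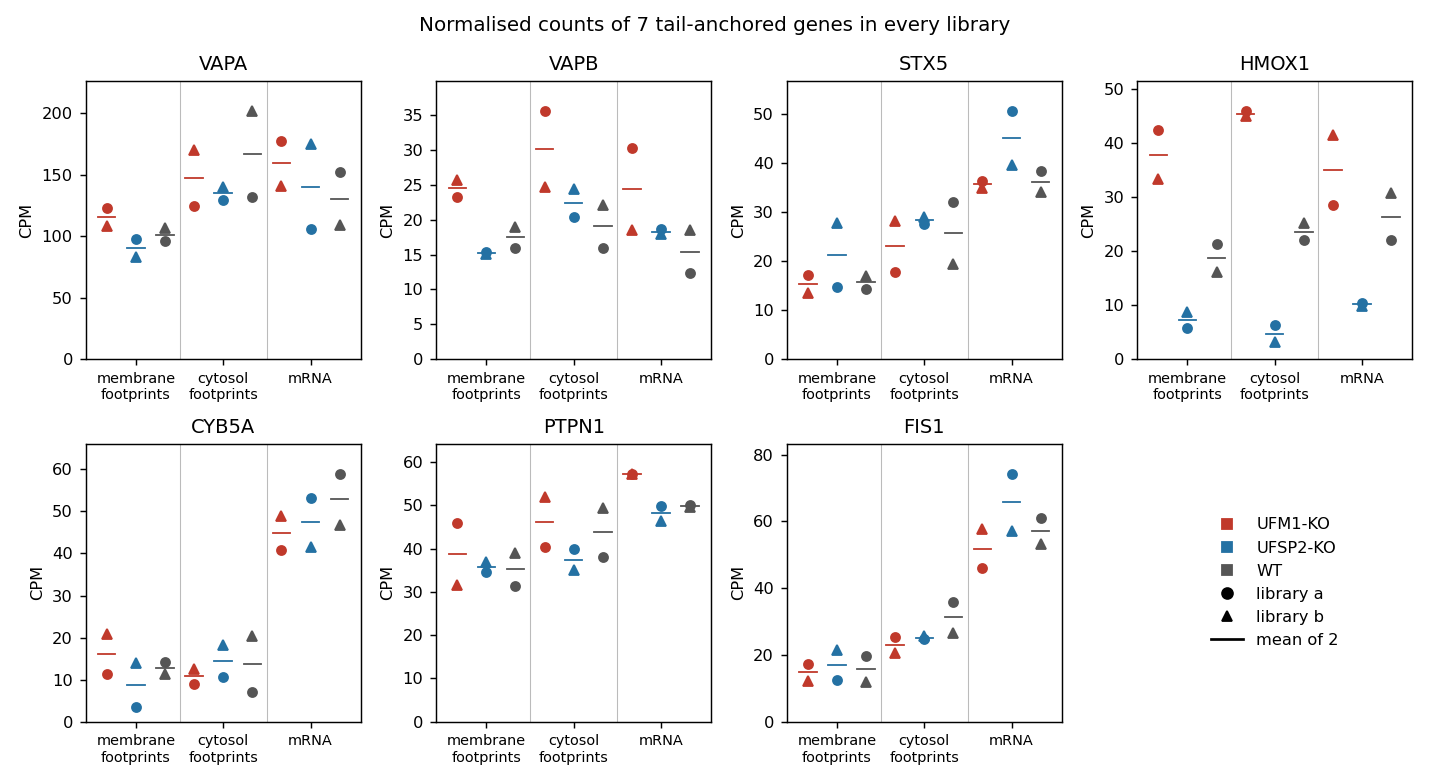
Normalised counts (CPM, y axes from 0) of the 7 members in membrane footprints, cytosol footprints and mRNA, with UFM1-KO, UFSP2-KO and WT from left to right in each block. Circles are libraries a, triangles libraries b and lines the mean of 2. For HMOX1 the UFSP2-KO libraries lie lowest in all 3 blocks, and for the other members UFM1-KO stands clear of both other lines only for VAPA at the membrane, VAPB in both fractions and PTPN1 in mRNA.

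Among the other 6 members, DESeq2 called 0 between any lines. For cytosol footprints of UFM1-KO against WT it gave no adjusted p for VAPB, STX5, CYB5A and FIS1, nor for HMOX1. Of all 11065 features DESeq2 called 45 in UFM1-KO against WT, 528 in UFSP2-KO against WT and 1276 between the knockouts in membrane footprints. In the same order it called 47, 249 and 752 in cytosol footprints, and 547, 1442 and 2624 of 13889 in mRNA. At an unadjusted p under 0.05 in edgeR there was 1 of the 6, VAPB, in UFM1-KO against WT mRNA and in UFM1-KO against UFSP2-KO membrane footprints, beside 16.2% and 34.5% of all features. In mRNA it had 30.3 and 18.5 CPM in UFM1-KO, 18.6 and 18 CPM in UFSP2-KO, against 12.3 and 18.6 CPM in WT, and the UFM1-KO and WT libraries overlapped by a narrow margin. At the membrane VAPB had 23.3 and 25.8 CPM in UFM1-KO, 15.3 and 15.1 CPM in UFSP2-KO, against 15.9 and 19 CPM in WT, and the UFM1-KO libraries lay above the rest. Its log2 change in UFM1-KO was 0.66 in mRNA (SE 0.3, edgeR adjusted p = 0.286), 0.45 in membrane footprints (SE 0.26, edgeR adjusted p = 0.562) and 0.57 in cytosol footprints (SE 0.29, edgeR adjusted p = 0.469). Against UFSP2-KO its membrane footprints in UFM1-KO differed by 0.67 (SE 0.29, edgeR adjusted p = 0.0957). PTPN1 mRNA also stood apart, with 57.2 and 57.4 CPM in UFM1-KO, 50 and 46.4 CPM in UFSP2-KO, against 50.2 and 49.6 CPM in WT, but its log2 change in UFM1-KO was 0.20 (SE 0.21, edgeR adjusted p = 0.682).

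Changes of the other 6 were bounded rather than shown to be absent. In mRNA their log2 changes ran from -0.24 to 0.66 in UFM1-KO and from -0.15 to 0.32 in UFSP2-KO, and their 95% intervals from -0.73 to 1.29 and from -0.65 to 0.88. In membrane footprints the changes ran from -0.02 to 0.45 in UFM1-KO and from -0.43 to 0.45 in UFSP2-KO, with intervals from -0.66 to 1.11 and from -1.36 to 1.10. In cytosol footprints they ran from -0.56 to 0.57 and from -0.33 to 0.27, with intervals from -1.53 to 1.16 and from -0.95 to 0.93. CYB5A had the widest intervals in footprints. Its libraries lay far apart in places, as with 3.41 and 13.9 CPM at the UFSP2-KO membrane. Without UFSP2-KO membrane library b, CYB5A was called higher in UFM1-KO than in UFSP2-KO at the membrane (log2 2.14, edgeR adjusted p = 0.0451, range over its 10 alternatives 0.0451 to 0.912).

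**Figure D3:**
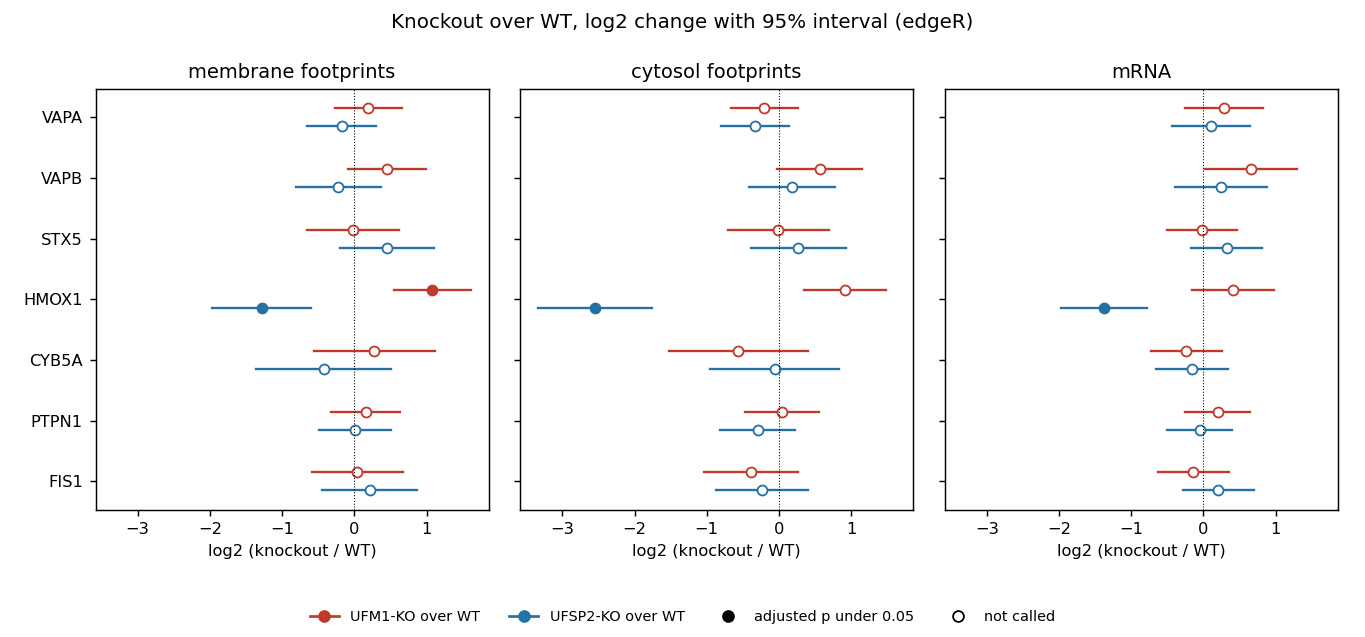
Log2 change of each member in UFM1-KO (upper, red) and UFSP2-KO (lower, blue) over WT, with the 95% interval of the edgeR fit. Filled points have an adjusted p under 0.05: HMOX1 in UFM1-KO membrane footprints, and HMOX1 in all 3 measures of UFSP2-KO.

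Footprint changes were next set against mRNA changes in 1 model of all 18 libraries. By edgeR, 0 of 7 members had footprints that changed by another amount than their mRNA, in either fraction of either knockout. Over all 12619 features the share called was 0.00% in both fractions of UFM1-KO, 0.0792% at the UFSP2-KO membrane and 0.0158% in the UFSP2-KO cytosol. DESeq2 called 0 of 7 in each. Of all features it called 2 at the UFM1-KO membrane, 0 in the UFM1-KO cytosol, 21 at the UFSP2-KO membrane and 12 in the UFSP2-KO cytosol. At an unadjusted p under 0.05 there was 1 member, HMOX1 in the UFSP2-KO cytosol, beside 6.89% of all features, where the footprint change less the mRNA change was -1.12 on the log2 scale (SE 0.5, 95% interval -2.15 to -0.10, edgeR adjusted p = 0.697). Without UFSP2-KO cytosol library b it was -0.52. At the UFSP2-KO membrane the difference for HMOX1 was 0.03 (SE 0.45, 95% interval -0.88 to 0.95). In UFM1-KO it was 0.61 at the membrane (SE 0.38) and 0.50 in the cytosol (SE 0.4).

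The members differed widely in level. Per 1000 codons of the listed length, WT mRNA was highest for VAPA at 568 ± 132 CPM (SD, n = 2), then CYB5A at 460 ± 75.5 and FIS1 at 429 ± 41.7. CYB5A overlapped both neighbours in this order, while VAPA and FIS1 did not overlap. PTPN1 at 119.9 ± 0.964, STX5 at 108 ± 8.88 and HMOX1 at 97.9 ± 22.6 followed, where HMOX1 overlapped STX5, and VAPB was lowest at 68.9 ± 19.9. VAPB and HMOX1 also overlapped narrowly. In WT cytosol footprints the order per 1000 codons was VAPA at 729 ± 217 CPM, FIS1 at 237 ± 50.9, CYB5A at 121 ± 83.7, PTPN1 at 105 ± 19.6, HMOX1 at 87.8 ± 8.21, VAPB at 85.4 ± 19.4 and STX5 at 76.6 ± 26.7. From CYB5A downward each member overlapped the next. At the WT membrane VAPA had 443 ± 33.2 CPM per 1000 codons, FIS1 had 119.8 ± 40.8, CYB5A 112 ± 18.6, PTPN1 84.8 ± 12.7, VAPB 78.3 ± 9.66, HMOX1 69.6 ± 13.7 and STX5 46.8 ± 5.76. VAPA stood above all others there, CYB5A above PTPN1 and HMOX1 above STX5, and the other neighbours overlapped.

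CYB5A and FIS1 had the fewest footprints per message of the 7 in WT, in both fractions, although neither was low in footprints. Per codon, CYB5A ranked at the percentile 92.5 of all features in mRNA, 71.4 in membrane footprints and 77.75 in cytosol footprints, and FIS1 at 91.9, 72.7 and 86.4. The ratio of mean footprint CPM to mean mRNA CPM in WT was 0.242 at the membrane and 0.26 in the cytosol for CYB5A, and 0.277 and 0.547 for FIS1. VAPA had 0.776 and 1.28, and VAPB 1.13 and 1.23. The median over the 10780 features with at least 1 CPM of mRNA was 0.623 at the membrane and 0.478 in the cytosol. Over the 977 of them with a listed length of at most 150 codons, as CYB5A and FIS1 have, it was 0.743 and 0.925. The cytosol ratio of FIS1 thus lay above the median of all features and below that of the short ones. CYB5A also had the lowest ratio of the 7 in the cytosol of UFM1-KO (0.24) and of UFSP2-KO (0.304). At the membrane CYB5A was lowest in UFSP2-KO (0.183), but FIS1 was lowest in UFM1-KO (0.287, beside 0.361 for CYB5A). The WT cytosol ratio of CYB5A rests on libraries of 7 and 89 counts. These ratios are descriptions on relative scales, with no test.

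**Figure D4:**
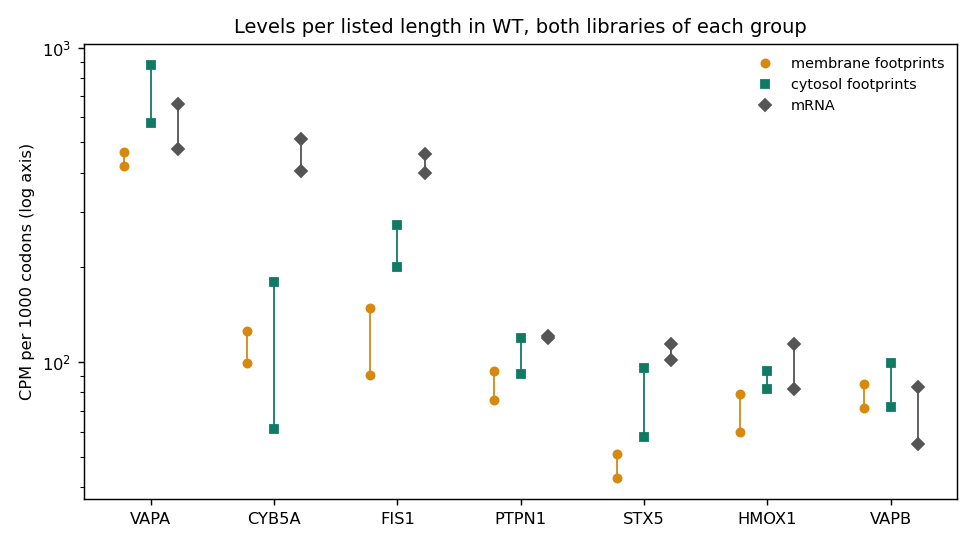
Level of each member in WT cells per 1000 codons of listed length (log axis), with both libraries of a group joined by a line. The mRNA of CYB5A and FIS1 lies at 399 CPM per 1000 codons or higher, and their footprints in both fractions lie lower. For VAPA, VAPB, STX5, PTPN1 and HMOX1 the 3 measures lie closer together.

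Across all 18 libraries, the transcript features whose log2 CPM followed the summed CPM of the 7 members most closely were ENST00000303731.7 (Pearson's r = 0.933) and ENST00000570259.1 (r = 0.923), among 12612 features. The sum is of unscaled CPM, so VAPA, the most abundant member, weighs most in it. The values share libraries and depth, the tables give no gene names for these IDs, and the likeness is a description only.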

How the data were processed

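Ribosome profiling was done on membrane and cytosolic fractions (12 libraries) and mRNA sequencing on whole cells (6 libraries) of 3 lines. Reads were aligned with TopHat2 2.1.1 to GRCh38, per the submitters' processing notes. No source used here gives the counting program or annotation release. The deposited values are raw counts per Ensembl transcript, beside a length that was read as codons less a fixed trim. Footprint and mRNA entries were joined by ID without version and by length. Entries with identical counts in all libraries of a model were merged, and reads shared by isoforms stay counted for each isoform.

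Counts were tested in R 4.3.3 with the edgeR 4.0.16 quasi-likelihood test, 1 coefficient per group, after filterByExpr (minimum count 10) and TMM scaling, in models of 12 footprint, 6 mRNA or all 18 libraries. P-values are two-sided and Benjamini-Hochberg adjusted over all features of a comparison, called under 0.05. SE came from the F statistic and 95% intervals from its t quantile. The 18 comparisons were recomputed with RLE or library-size scaling, no filter, DESeq2 1.42.0, only the groups compared, a replicate block and each library left out. The functions were tested on simulated data. All 7 members are named. Members and lists were chosen with earlier results of these data known. Lists of insertion machinery, other tail-anchored proteins, fraction markers and cell type markers were not tested, since no table used here pairs transcript IDs with gene names, and the analysis of tail sequences was not run.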

Additional observations from a re-analysis of the deposited data

Results flagged for a closer look

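HMOX1 differed between the knockout lines, with only 7 and 11 counts in the UFSP2-KO cytosol libraries. Tested directly, UFM1-KO exceeded UFSP2-KO by a log2 difference of 2.37 in membrane footprints, 3.46 in cytosol footprints and 1.78 in mRNA (edgeR adjusted p = 5.87e-06, 3.43e-07 and 4.90e-04), and every UFM1-KO library lay above both UFSP2-KO libraries in each measure.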

How the results depend on the processing

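No alternative called a member higher at the membrane. Members called lower there numbered 3 in UFM1-KO (VAPA -0.64, STX5 -0.87, FIS1 -0.86) and 2 in UFSP2-KO (VAPA -0.79, VAPB -0.78) with library-size scaling, a scaling that puts the median over all features at -0.27 in UFM1-KO, -0.18 in UFSP2-KO and -0.16 in WT. All features called in either direction then numbered 4310 in place of 3195 in UFM1-KO and 4677 in place of 4086 in UFSP2-KO. Features called lower alone were not counted under the alternatives. Members called lower numbered 0 in UFSP2-KO with RLE size factors or DESeq2 (VAPA -0.54 in each), and 0 in WT with DESeq2 (VAPA -0.65, FIS1 -0.91). All features called in either direction in UFSP2-KO numbered 4036 with RLE size factors and 3340 with DESeq2, in place of 4086. In WT they numbered 3213 with DESeq2, in place of 4153. PTPN1 in UFSP2-KO turned to 0.0176 with RLE size factors and 0.00195 with DESeq2. In membrane footprints DESeq2 also called 0 members in UFM1-KO against WT and 0 in UFSP2-KO against WT. Of all features it called 45 in place of 139 in the first and 528 in place of 1232 in the second. The cause was not tested.

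Leaving out 1 library at a time makes the fit less precise, so a lost call need not mean a weaker effect. Only effect sizes are given here for these fits. The HMOX1 log2 change in membrane footprints ranged from 0.85 to 1.25 in UFM1-KO against WT. In UFSP2-KO against WT it ranged from -1.67 to -1.04, and between the knockouts from 2.12 to 2.75. The membrane-to-cytosol log2 ratio ranged from -0.26 to 0.039 for PTPN1 in UFSP2-KO, from -0.33 to 0.16 for VAPB in WT and from -0.72 to 0.84 for CYB5A in WT. The ratio change of HMOX1 in UFM1-KO ranged from -0.064 to 0.34, and its UFSP2-KO membrane footprint change less mRNA from -0.35 to 0.26. A group left with 1 library is assumed to vary like the others.

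The letters a and b are not stated to pair libraries, and the correlation of same-lettered deviations was 0.05 to 0.33 in footprints and -0.68 to 0.06 in mRNA. With the letters as a replicate block no count of members called changed, while the number of all features called moved. For UFM1-KO against WT it was 246 in place of 94 in the cytosol and 291 in place of 139 at the membrane. For UFSP2-KO against WT in the cytosol it was 852 in place of 442. In mRNA it was 345 in place of 274 for UFM1-KO against WT. It was lower in mRNA for UFSP2-KO against WT (952 in place of 999) and between the knockouts (1905 in place of 2217). The alternatives on tail window length were not run.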
